A study of Mus musculus with 11 samples.

Results

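The genes described here are 7 genes of major histocompatibility complex (MHC) class II antigen presentation, H2-Aa, H2-Ab1, H2-Eb1, H2-DMa, H2-DMb1, Cd74 and Ciita, taken by name from a table of 34866 mouse genes. All 7 were found in the table and all 7 had enough reads to be tested. They were measured by bulk RNA sequencing in the mucosa of the gastric corpus, the acid-producing middle part of the stomach, in 11 samples. There were 2 wild-type controls and 3 samples of each line, GIF-DTR, ATP4B-DTR and the combined GIF/ATP4B-DTR. DTR is the diphtheria toxin receptor, which makes the mouse cells that carry it sensitive to the toxin, and the series describes the lines as models for removing chief and parietal cells. Atp4b is a proton pump subunit of parietal cells and Gif is the intrinsic factor of mouse chief cells. The driver of each receptor is known here only from the names of the lines. The labels do not give the toxin dose, the time after toxin, the age, the sex or the sequencing batch, and they do not say whether the controls received toxin. They also do not say whether samples of a group came from separate animals, so p-values measure the spread between these samples, which may be technical.

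Class II molecules are pairs of an alpha and a beta chain that carry peptides from engulfed material to the cell surface, where CD4+ T cells read them. H2-Aa and H2-Ab1 encode the alpha and beta chains of I-A, and H2-Eb1 encodes the beta chain of I-E. Cd74, the invariant chain, fills the groove of a new class II molecule and guides it to the endosome, where H2-DMa and H2-DMb1, the chains of the peptide editor H2-DM, help to exchange the leftover of Cd74 for a peptide. Ciita is the transactivator that the promoters of these genes depend on. Dendritic cells, macrophages and B cells express the genes constantly, and epithelial and endothelial cells can do so after interferon gamma.

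In short, class II transcripts were low in this mucosa and followed 1 pattern in most of the 7 genes. They were high in control 2 and in the 3 GIF-DTR samples, and low in control 1, ATP4B-DTR and GIF/ATP4B-DTR. Control 2 exceeded control 1 by 6.65-fold for H2-Aa, 7.34-fold for H2-Ab1, 6.67-fold for H2-Eb1 and 6.97-fold for Cd74. The levels of the 7 genes are therefore given for each control separately. Log2 differences against control, also those of other genes, use both controls together unless stated. Between lines, all 7 genes had lower fitted levels in GIF/ATP4B-DTR than in GIF-DTR, with a median log2 difference of −1.66, although 0 of them passed the adjusted threshold of the main test.

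Of the 7 genes, 5 lie together on mouse chromosome 17 in the GRCm38 build, the build the submitters' processing notes name as mm10. The GENCODE M21 annotation places H2-DMa at chr17:34119541-34139101, H2-DMb1 at chr17:34153072-34160230, H2-Ab1 at chr17:34257689-34269419 and H2-Eb1 at chr17:34305867-34316674, all on the plus strand. H2-Aa lies on the minus strand at chr17:34282744-34287823. Ciita is on chromosome 16 at chr16:10480059-10528418 on the plus strand. An exon of H2-DMa overlaps Brd2 on the opposite strand, and an exon of Ciita overlaps Dexi on the opposite strand. The library kit marks strand, but whether counting used it is not given in the sources used here, so the levels of H2-DMa and Ciita are less certain.

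Class II promoters are known for an X box, bound by the RFX complex, followed by a Y box, bound by NF-Y, and Ciita docks on the proteins held there. RefSeq windows of 300 bases, from 250 before to 50 after a start site (GRCm38.p6), were matched for 4 of the 7 genes. H2-Ab1, Cd74 and Ciita had no entry in the set of windows used here. On both strands the letters ACNGATG were searched as an X box core, CTGATTGG as a Y box and its last part TGATTGG as a Y box core, which overlaps the Y box and was added after the sequences were seen. The stretches below run from 110 to 31 bases before the start for the alpha chain H2-Aa (chr17:34287854-34287933, minus strand) and the beta chain H2-Eb1 (chr17:34305757-34305836, plus strand), the 2 genes that passed the test against control. They are printed 5′ to 3′ along the gene, and capitals mark matches of the X box core or the Y box core.
H2-Aa: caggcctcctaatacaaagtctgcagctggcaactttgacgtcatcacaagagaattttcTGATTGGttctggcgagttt
H2-Eb1: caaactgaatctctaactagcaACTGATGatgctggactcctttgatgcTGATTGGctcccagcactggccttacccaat
The H2-Eb1 stretch holds an X box core that begins 88 bases before the start and a Y box core 61 bases before it, with 20 bases between them. H2-DMb1, whose stretch lies in an annotated UTR and is not printed, holds both cores in the same order at 91 and 63 bases before the start, with 21 bases between them. In H2-Aa a Y box core begins 50 bases before the start. The letters searched as an X box core do not occur within the stretch shown, although 1 match lies farther upstream on the opposite strand. The RefSeq windows of H2-DMa held none of these letters. The search used exact letters, so a missing match does not show that H2-Aa or H2-DMa lacks an X box. Over all 32851 windows, 9.85% held the X box core, 4.10% the Y box, 7.82% the Y box core, and 0.31% both cores within 60 bases of each other.

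Sample totals ranged from 20689262 to 27946423 counts, and levels are given as CPM, the counts scaled to a common library size, after TMM scaling, which discounts the most changed genes. At this depth 3 counts correspond to 0.107 to 0.166 CPM, and every one of the 7 genes had at least 6 counts in every sample. Atp4b lay between 4365 and 4786 CPM in control and between 158 and 683 CPM in the lines named for it. Gif lay between 702 and 2303 CPM in control and between 65.5 and 218 CPM in the lines named for it. In the line not named for it, Atp4b was also below both controls, at 2136 to 3470 CPM in GIF-DTR. Gif was 332 to 824 CPM in ATP4B-DTR, overlapping control. The Y-linked genes Ddx3y and Eif2s3y were expressed in both controls, in ATP4B-DTR 1 and in all 3 GIF/ATP4B-DTR samples, and were absent or nearly so in the other 5. GIF-DTR therefore differs from control and from GIF/ATP4B-DTR in Y-linked expression too, and the line and that difference cannot be told apart. Gene-wise tests used edgeR's quasi-likelihood model on the whole table of 14889 tested genes, with Benjamini-Hochberg adjustment over all of them, and a gene is said to have passed at an adjusted p under 0.05.

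Among the peptide-binding chains, H2-Aa read 6.11 CPM for control 1 and 40.6 for control 2. Its ATP4B-DTR values were 4.56, 5.00 and 7.95 CPM, its GIF-DTR values 23.4, 14.2 and 25.4, and its GIF/ATP4B-DTR values 2.58, 7.57 and 6.13. Every GIF-DTR sample was above every sample of the other 2 lines, control 2 was above all of them, and control 1 lay among the low lines. Its partner H2-Ab1 read 4.36 CPM for control 1 and 32.0 for control 2. For this beta chain the ATP4B-DTR samples held 7.68, 6.89 and 9.53 CPM, the GIF-DTR samples 34.8, 17.7 and 34.1, and the GIF/ATP4B-DTR samples 3.99, 12.6 and 6.66. Here 2 of the GIF-DTR samples exceeded control 2, and control 1 was lower than all 3 ATP4B-DTR samples. H2-Eb1 read 4.76 CPM for control 1 and 31.8 for control 2. Its 3 samples from ATP4B-DTR gave 3.31, 2.63 and 6.92 CPM, those from GIF-DTR 17.2, 13.0 and 19.8, and those from GIF/ATP4B-DTR 3.03, 6.33 and 4.24. Control 2 was again highest, GIF-DTR lay above the other lines, and the 2 low lines overlapped each other and control 1.

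Cd74, on chromosome 18, was the most abundant of the 7 genes, with 13.5 CPM for control 1 and 94.2 for control 2. ATP4B-DTR gave 25.4, 14.2 and 29.6 CPM, GIF-DTR 82.4, 37.6 and 71.1, and GIF/ATP4B-DTR 11.8, 29.8 and 18.8. GIF-DTR did not overlap the other lines, and control 1 lay just below the lowest ATP4B-DTR sample. In 3 samples the deposited value of Cd74 was fractional, as when reads are shared with another gene.

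The peptide editor was near the bottom of the range. H2-DMa read 0.539 CPM for control 1 and 3.05 for control 2. Its values were 1.72, 0.878 and 1.57 CPM for ATP4B-DTR, 3.12, 2.16 and 2.74 for GIF-DTR, and 1.05, 0.941 and 0.784 for GIF/ATP4B-DTR, from 12 to 69 counts per sample. All GIF-DTR samples were above all samples of the other lines, and control 1 was the lowest of the 11 samples. H2-DMb1 read 2.96 CPM for control 1 and 4.44 for control 2, a smaller gap than the 5.66-fold one of H2-DMa. Its ATP4B-DTR samples gave 4.10, 2.41 and 2.03 CPM, its GIF-DTR samples 7.47, 2.71 and 4.25, and its GIF/ATP4B-DTR samples 1.49, 1.84 and 1.28. The 3 GIF/ATP4B-DTR samples were the lowest of the 11, below both controls and both other lines, while GIF-DTR and ATP4B-DTR overlapped. The deposited value of H2-DMb1 was fractional in 4 samples.

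Ciita was not far above the detection floor. Control 1 read 0.449 CPM and control 2 read 0.610, a ratio of 1.36. Values were 0.326, 0.263 and 1.24 CPM for ATP4B-DTR, 0.520, 1.49 and 1.63 for GIF-DTR, and 0.605, 0.299 and 0.392 for GIF/ATP4B-DTR, from 6 to 41 counts per sample. The transactivator's groups overlapped in every comparison, and 6 of its 11 deposited values were fractional.

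**Figure D1:**
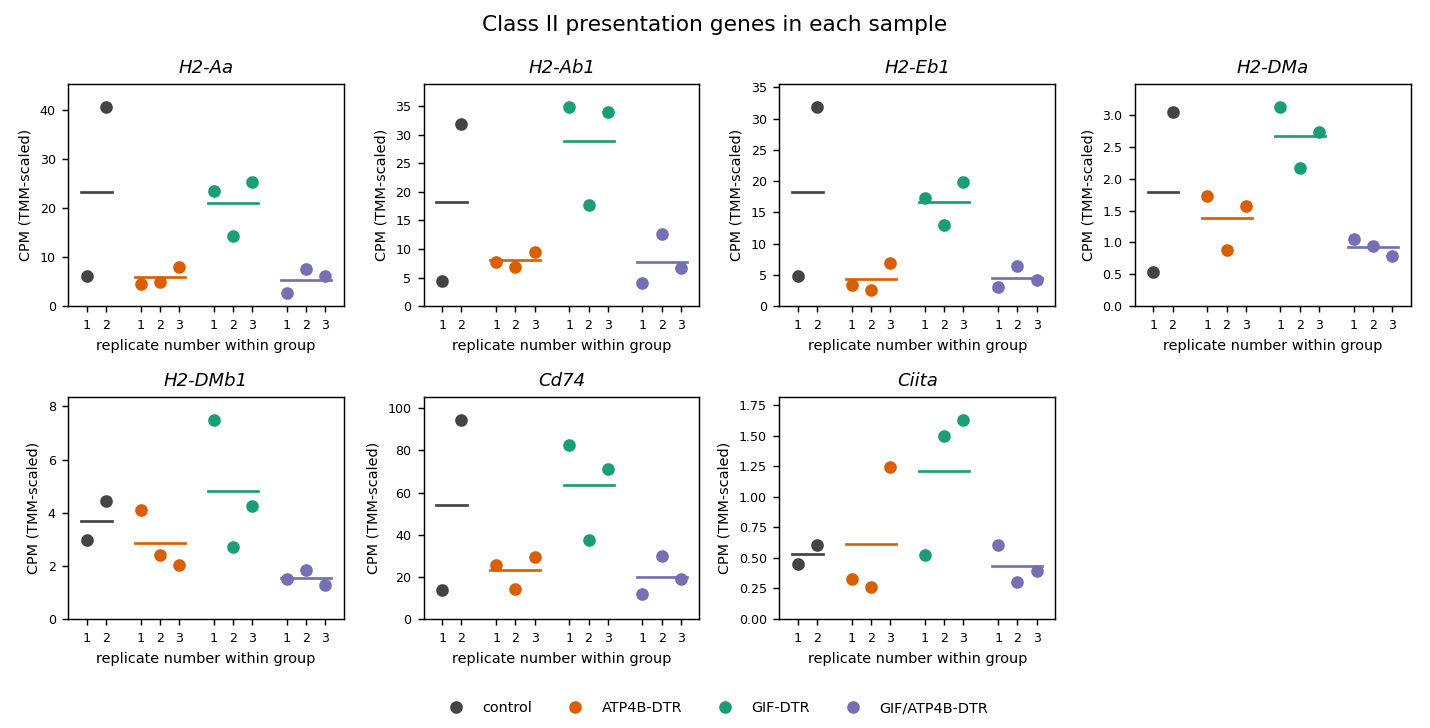
Level of each of the 7 class II presentation genes in CPM (TMM-scaled, linear axes from 0) in each of the 11 samples, with a horizontal bar at each group's mean. In H2-Aa, H2-Ab1, H2-Eb1, H2-DMa and Cd74 the GIF-DTR samples lie above the other 2 lines and the 2 control points lie far apart, as for H2-Aa at 6.11 and 40.6 CPM.

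Levels of different genes were compared per kilobase of exon, using the combined exon length of each gene in GENCODE M21. Over the 11 samples the mean was 23.2 CPM per kilobase for Cd74, 6.03 for H2-Ab1, 5.29 for H2-Eb1, 3.44 for H2-Aa, 1.89 for H2-DMb1, 0.489 for H2-DMa and 0.0746 for Ciita. The invariant chain thus exceeded each chain it accompanies, and the transactivator was the rarest transcript of the set. Without division by length, the mean of H2-Aa was 23.3 ± 24.4 CPM for control (SD, n = 2), and with n = 3 it was 21.0 ± 5.97 for GIF-DTR, 5.84 ± 1.84 for ATP4B-DTR and 5.43 ± 2.57 for GIF/ATP4B-DTR. For Cd74 the means were 53.9 ± 57.1, 63.7 ± 23.3, 23.1 ± 7.94 and 20.1 ± 9.08 CPM (SD) in the same order, with the same n. The control mean of these genes lies between its 2 samples and describes neither, and the order of control against GIF-DTR is not beyond the spread for any of the 7 genes.

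GIF/ATP4B-DTR and GIF-DTR share the GIF-DTR part of their names and differ in the ATP4B-DTR part, and their comparison uses no control sample. All 7 genes had a lower fitted level in GIF/ATP4B-DTR, 6 of the 7 without overlap between the groups (all but Ciita), where 14.2% of all tested genes were lower without overlap. The edgeR test passed 0 of the 7 after adjustment, against 2.53% of all tested genes, and all 7 had an unadjusted p under 0.05, as did 18% of all tested genes. H2-DMb1 came nearest, at −1.64 ± 0.42 log2 units (SE; edgeR adjusted p = 0.0687), or 3.12-fold lower. H2-Aa differed by −1.95 ± 0.65 log2 units (edgeR adjusted p = 0.171), and Cd74 by −1.66 ± 0.67 (0.246). The median over the 7 genes was −1.66 log2 units, and that over all tested genes was 0.01.

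The call in this comparison changed between settings, while the direction did not. In 20 fits with other settings or a library left out, the main one included, each of H2-Aa, H2-Ab1, H2-Eb1, H2-DMa, H2-DMb1 and Cd74 was lower. Ciita was lower in the 19 that tested it. Where the groups do not overlap, leaving out a library or changing the test could hardly turn the direction, so its constancy is no separate evidence. DESeq2's Wald test passed H2-Aa (adjusted p = 0.012), H2-Eb1 (0.0183) and H2-DMb1 (0.00688), where it called 6.63% of the 14889 genes. With only the 2 lines in the edgeR fit, H2-Aa (adjusted p = 0.0494) and H2-Eb1 (0.0174) passed, with 2.13% of the genes. With either control left out of the edgeR fit, H2-Aa, H2-Ab1 and H2-Eb1 passed, with adjusted p of 0.0298, 0.0413 and 0.0298 without control 1 and of 0.029, 0.0403 and 0.0293 without control 2, where 2.59% and 2.64% of the genes passed. Without GIF-DTR 2 only H2-DMb1 passed in edgeR, at −1.93 log2 units (adjusted p = 0.0426), with 1.95% of the genes. With no filter on low counts, H2-DMb1 passed as well (edgeR adjusted p = 0.0471), and the number of genes called came to 2.79% of the 14889. Over all alternatives, H2-Aa ran from −2.26 to −1.40 log2 units, H2-Eb1 from −2.20 to −1.41 and H2-DMb1 from −2.26 to −1.18. The largest edgeR adjusted p among them was 0.81 for H2-Aa, 0.806 for H2-Eb1 and 0.495 for H2-DMb1. With a Y-linked expression index as a covariate none of the 7 passed, and 0.0806% of the 14889 genes did.

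GIF-DTR against ATP4B-DTR sets the line named for chief cells beside the line named for parietal cells. All 7 genes had a higher fitted level in GIF-DTR, and H2-Aa, H2-Ab1, H2-Eb1, H2-DMa and Cd74, 5 of the 7, did so without overlap, where 9.27% of all tested genes were higher without overlap. The edgeR test passed 0 of the 7 after adjustment, against 0.49% of all tested genes, and 3 had an unadjusted p under 0.05, against 9.81%. H2-Eb1 was 3.88-fold higher, at 1.96 ± 0.63 log2 units (edgeR adjusted p = 0.316), H2-Aa 3.59-fold higher, at 1.85 ± 0.65 (0.364), and H2-Ab1 3.59-fold higher, at 1.84 ± 0.67 (0.393). The groups of H2-DMb1 (0.76 ± 0.41 log2 units) and Ciita (0.98 ± 0.66) overlapped. DESeq2's Wald test passed H2-Aa (adjusted p = 0.0391) and H2-Eb1 (0.0244), with 2.57% of the 14889 genes, and edgeR with only these 2 lines passed H2-Aa (0.0466) and H2-Ab1 (0.0383), with 0.450% of the genes. Among the 5 samples without Y-linked expression, 2 of ATP4B-DTR and 3 of GIF-DTR, the differences were 1.68 log2 units for H2-Aa, 1.79 for H2-Ab1, 1.78 for H2-Eb1, 1.10 for H2-DMa, 1.09 for H2-DMb1, 1.52 for Cd74 and 0.67 for Ciita, with edgeR adjusted p from 0.167 to 0.84.

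GIF/ATP4B-DTR and ATP4B-DTR both had low class II levels. The edgeR test passed 0 of the 7, against 0% of all tested genes, and 0 had an unadjusted p under 0.05, against 10.4% of all tested genes. DESeq2 also passed 0. The log2 differences ranged from −0.89 ± 0.42 for H2-DMb1 to 0.08 ± 0.63 for H2-Eb1, with a median of −0.20. H2-DMb1 was the 1 gene whose groups did not overlap, with GIF/ATP4B-DTR lower, as were 8.12% of all tested genes.

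Against control, the lines were compared with 2 samples that disagree. In GIF/ATP4B-DTR 2 of the 7 genes fell in the edgeR test, against 15.4% of all tested genes called lower and 33.6% called either way. An unadjusted p under 0.05 was found for 3 of the 7, against 44.5% of all tested genes. H2-Aa fell by 2.10 log2 units (SE 0.70, adjusted p = 0.0446) and H2-Eb1 fell by 2.01 (SE 0.68, adjusted p = 0.0465). H2-DMb1 differed by −1.26 ± 0.46 (edgeR adjusted p = 0.0523) and was the 1 gene with no overlap, as were 27.2% of all tested genes in that direction. Of the other 4 genes, Cd74 differed by −1.42 ± 0.73 log2 units (edgeR adjusted p = 0.167), and the remaining 3 lay between −1.23 and −0.28.

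Both of these calls were close to the threshold and depended on control 2. Against control 1 the mean of GIF/ATP4B-DTR was 0.888 times the level for H2-Aa and 0.952 times for H2-Eb1, and against control 2 it was 0.134 and 0.143 times. Without control 2 the log2 differences were −0.17 for H2-Aa (edgeR adjusted p = 0.858) and −0.08 for H2-Eb1 (0.94), and H2-Ab1, H2-DMa and Cd74 turned to 0.82, 0.77 and 0.57. Without control 1, 5 genes passed, namely H2-Aa (−2.90, edgeR adjusted p = 0.00297), H2-Eb1 (−2.81, 0.00294), H2-Ab1 (−2.05, 0.0163), H2-DMa (−1.72, 0.0225) and Cd74 (−2.22, 0.0159). In that fit 29.5% of the 14889 genes were called either way. Of the 11 fits that each left out 1 library, H2-Aa passed in 1, without control 1, and H2-Eb1 in 2, without control 1 and without ATP4B-DTR 3. Both calls also ended with no filter on low counts, with only these groups in the fit, and with a Y-linked expression index as a covariate (edgeR adjusted p of 0.0633 and 0.066). H2-DMb1 passed in 3 of the 11, without ATP4B-DTR 1, GIF-DTR 1 or GIF-DTR 2.

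ATP4B-DTR against control gave similar values for the chains without a call. The edgeR test passed 0 of the 7, against 21.6% of all tested genes, and 2 had an unadjusted p under 0.05, against 34.8%. Those 2 were H2-Eb1, at −2.08 ± 0.68 log2 units (edgeR adjusted p = 0.0567), and H2-Aa, at −1.99 ± 0.70 (0.0725). DESeq2 passed both (adjusted p of 0.00468 and 0.00674), that is 2 of the 7, and 26.7% of the 14889 genes. Without control 1, edgeR passed H2-Aa, H2-Ab1, H2-Eb1 and Cd74, at −2.79, −1.99, −2.88 and −2.03 log2 units, with 14.4% of all genes called, and without ATP4B-DTR 3 it passed H2-Eb1 at −2.62, with 19.6% called. Without control 2, H2-Aa stood at −0.07 and H2-Eb1 at −0.15, and H2-Ab1, H2-DMa and Cd74 turned to 0.88, 1.36 and 0.77. Since this comparison and the last share their controls, their likeness is not separate evidence.

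GIF-DTR against control passed 0 of the 7 in edgeR, against 16.8% of all tested genes. None had an unadjusted p under 0.05, where 31.4% of all tested genes did, and DESeq2 passed 0. The log2 differences ran from −0.15 ± 0.69 for H2-Aa to 1.20 ± 0.77 for Ciita, with a median of 0.38. Against control 1 the GIF-DTR means were 3.44 times the level for H2-Aa, 6.63 for H2-Ab1 and 4.71 for Cd74, and against control 2 they were 0.518, 0.902 and 0.676 times. Without control 2, H2-Ab1 passed at 2.72 log2 units (edgeR adjusted p = 0.0448), in a fit that called 5.85% of all genes.

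The interaction asks whether the log2 difference of GIF/ATP4B-DTR from ATP4B-DTR departs from that of GIF-DTR from control. It passed 0 of the 7 genes in edgeR, against 0.651% of all tested genes. It also had 0 members with an unadjusted p under 0.05, against 15.6% of all tested genes, and DESeq2 passed 0. Its values ran from −1.70 ± 1.03 for Ciita to 0.20 ± 0.92 for H2-Eb1. For H2-Ab1 it was −0.73 ± 0.99, and it moved from −2.78 without control 2 to 0.089 without control 1.

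**Figure D2:**
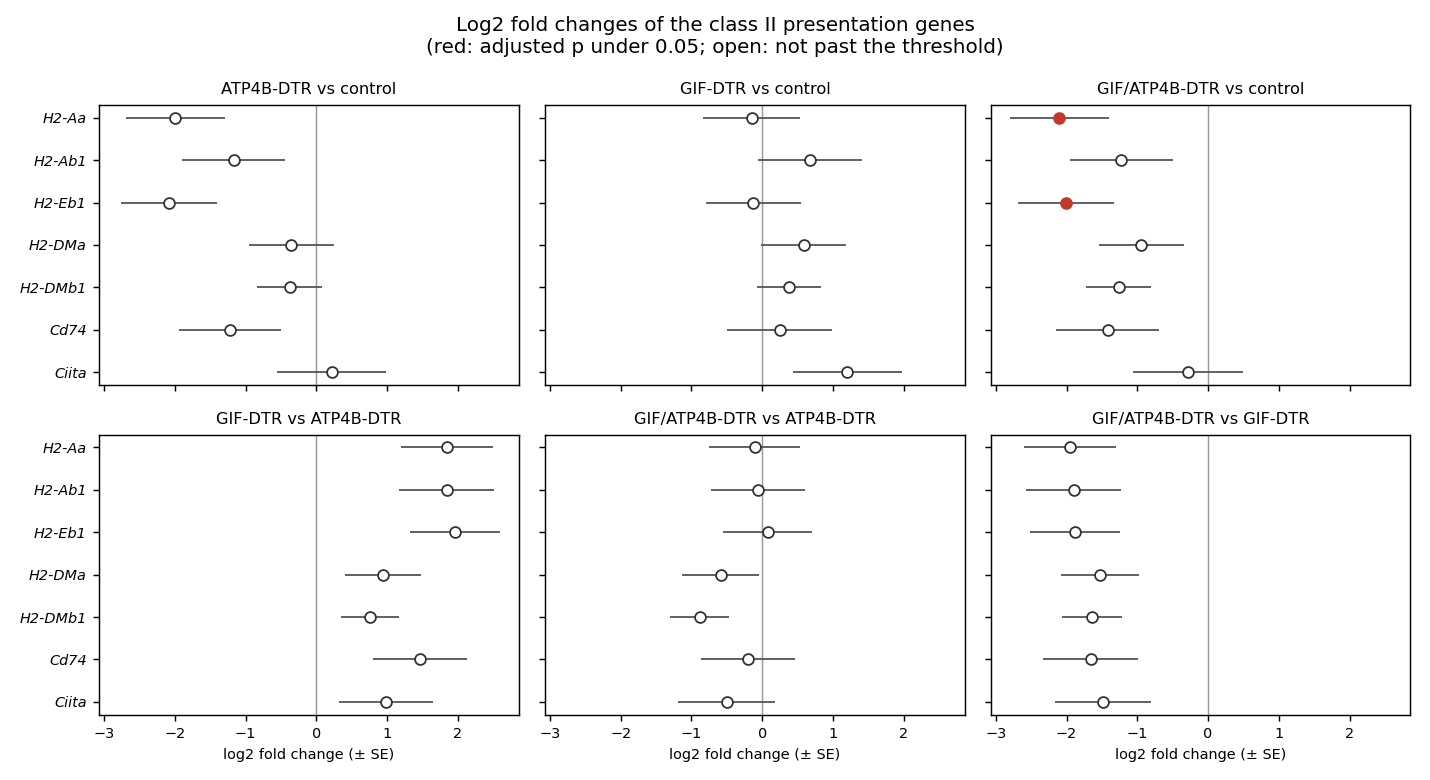
Log2 fold changes of the 7 class II presentation genes in the 6 pairwise comparisons (x axis, points with ± SE from the edgeR fit on all 11 samples), filled red where the adjusted p is under 0.05 and open otherwise. Only H2-Aa (−2.10) and H2-Eb1 (−2.01) in GIF/ATP4B-DTR against control are filled, and all 7 points lie below 0 in GIF/ATP4B-DTR against GIF-DTR.

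The balance among the chains, unlike their level, did separate the controls from the lines. This balance was picked out after its values were seen and is given as a description, with no test. The ratio of H2-Aa to H2-Ab1, each per kilobase of exon, was 0.948 in control 1 and 0.858 in control 2. The line samples gave 0.402, 0.491 and 0.564 (ATP4B-DTR), 0.437, 0.407 and 0.622 (GIF/ATP4B-DTR), and 0.455, 0.544 and 0.505 (GIF-DTR). Both controls lay above all 9 line samples, although the level of each chain differed about 7-fold between the controls. The ratio of H2-Eb1 to H2-Ab1 was 1.44 and 1.31 in controls 1 and 2. It ranged from 0.505 to 0.959 in ATP4B-DTR, from 0.653 to 0.972 in GIF-DTR and from 0.665 to 1.00 in GIF/ATP4B-DTR, again below both controls.

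Of the 21 pairs among the 7 genes, 5 had both controls apart from all 9 line samples: H2-Aa and H2-Eb1 each relative to H2-Ab1, H2-Aa and H2-Eb1 each relative to H2-DMa, and H2-Aa relative to Cd74. Of the 14888 other tested genes, 1.69% were apart in the same way relative to H2-Ab1, 2.57% relative to H2-Aa and 2.61% relative to H2-Eb1. H2-Aa and H2-Eb1 relative to each other did not separate the groups. The ratio of Cd74 to H2-Ab1, which runs from 3.16 to 5.06 over the 11 samples, did not do so either, with the controls at 4.75 and 4.51.

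**Figure D3:**
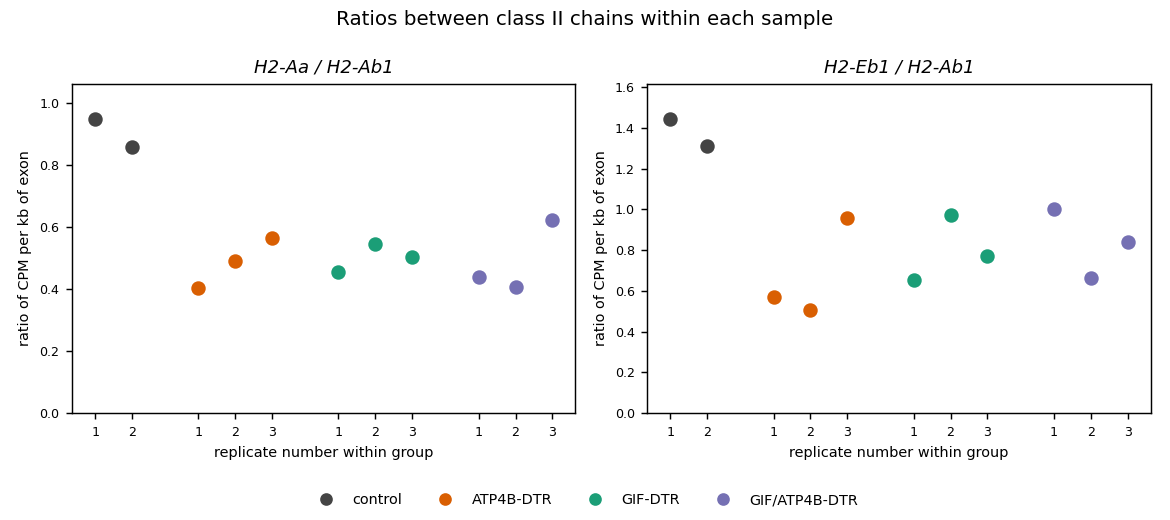
Ratio of H2-Aa to H2-Ab1 (left) and of H2-Eb1 to H2-Ab1 (right) within each of the 11 samples, each gene in CPM per kilobase of exon, on linear axes from 0. The control points, at 0.948 and 0.858 on the left and 1.44 and 1.31 on the right, lie above every point of the 3 lines.

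Other class II genes were near or at 0. Of 5 further genes found in the table, 0 passed the filter on low counts. H2-Ea-ps, annotated as a pseudogene of the I-E alpha chain, the partner of H2-Eb1, had 0 counts in all 11 samples, which allows a level of up to 0.107 to 0.166 CPM depending on the sample. H2-DMb2, another beta chain of H2-DM, reached at most 0.436 CPM. H2-Oa and H2-Ob, the chains of the H2-DM inhibitor H2-O, reached at most 0.142 and 0.61 CPM, and H2-Eb2 at most 0.0712 CPM.

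The transcription factors that bind the class II promoter were expressed in every sample. Of the 7 genes in this list, edgeR passed 2 higher and 1 lower in ATP4B-DTR against control, 1 higher in GIF-DTR and 2 higher in GIF/ATP4B-DTR, and 0 between lines. Of all tested genes, 12.2% were called higher and 9.39% lower in ATP4B-DTR against control, 9.97% and 6.82% in GIF-DTR, and 18.2% and 15.4% in GIF/ATP4B-DTR. The median log2 difference of the list against control was 0.14 for ATP4B-DTR, 0.03 for GIF-DTR and 0.29 for GIF/ATP4B-DTR, and over all tested genes it was −0.01, −0.01 and −0.04. Rfxap, a subunit of the RFX complex, rose by 0.83 ± 0.16 log2 units in GIF-DTR, 0.62 ± 0.16 in ATP4B-DTR and 0.66 ± 0.16 in the combined line (edgeR adjusted p of 0.00651, 0.0171 and 0.00742). Nfyc, a subunit of NF-Y, rose in ATP4B-DTR by 0.69 ± 0.13 and in GIF/ATP4B-DTR by 0.59 ± 0.13 (edgeR adjusted p of 0.00373 and 0.0045). Nfya fell by 0.45 log2 units in ATP4B-DTR (SE 0.14, edgeR adjusted p = 0.0387). Rfx5 stood at 8.53 and 9.09 CPM in controls 1 and 2, where H2-Aa differed 6.65-fold, and between 10.2 and 16.0 CPM in GIF-DTR against 10.4 to 15.5 CPM in ATP4B-DTR. Rfxank, Nfyb and Creb1 passed in none of the 6 pairwise comparisons.

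Interferon gamma itself (Ifng), which induces Ciita in many cell types, was at 0 counts in 9 of 11 samples and at 1 count in the other two. Of the 10 tested genes of its signalling list, edgeR passed 2 higher and 2 lower in ATP4B-DTR against control, 2 higher in GIF-DTR, 2 higher and 1 lower in GIF/ATP4B-DTR, and 0 between lines. Over all tested genes, 12.2% were called higher and 9.39% lower in ATP4B-DTR, 9.97% and 6.82% in GIF-DTR, and 18.2% and 15.4% in GIF/ATP4B-DTR. The list medians were 0.16, 0.68 and 0.38 log2 units against control. Cxcl10, a chemokine that interferons induce, stood at 0.494 and 1.16 CPM in controls 1 and 2 and at 8.31 to 53.4 CPM over the 9 line samples, and it rose in all 3 lines, by 4.74 log2 units in GIF-DTR, 3.92 in ATP4B-DTR and 5.23 in the combined line (edgeR adjusted p of 0.00998, 0.0143 and 0.00253). Irf1, an interferon-induced factor, rose by 1.21 ± 0.34 log2 units in GIF-DTR and by 1.14 ± 0.34 in GIF/ATP4B-DTR (edgeR adjusted p of 0.0364 and 0.0259). Jak1, a kinase of the receptor, fell by 0.50 log2 units in ATP4B-DTR and by 0.55 in GIF/ATP4B-DTR, and Ifngr1, a receptor chain, fell by 0.58 in ATP4B-DTR. Socs1, a feedback inhibitor, rose by 1.79 log2 units in ATP4B-DTR.

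The antigen-processing genes gave 0 higher calls in any comparison. Of 7 tested, 1 was lower in ATP4B-DTR against control, 1 was lower in GIF-DTR, 2 were lower in GIF/ATP4B-DTR, and 0 were lower between lines. The shares of all tested genes called lower against control were 9.39%, 6.82% and 15.4% in that order, and 12.2%, 9.97% and 18.2% were called higher. With so few genes, these counts are near those shares. The list medians were −0.24, −0.05 and −0.04 log2 units against control. March8, a ubiquitin ligase that removes class II molecules from the surface, fell by 0.52 log2 units in GIF-DTR, 0.69 in ATP4B-DTR and 0.77 in the combined line (edgeR adjusted p of 0.0366, 0.00856 and 0.0028). Ctsd, an endosomal protease, fell in GIF/ATP4B-DTR by 0.60 log2 units. Ctss, the protease that trims Cd74, read 3.55 CPM for control 1 and 12.9 for control 2, then 10.1, 7.99 and 14.2 for ATP4B-DTR, 20.9, 24.1 and 28.8 for GIF-DTR, and 7.87, 17.5 and 6.09 for GIF/ATP4B-DTR. Its 3 highest values were those of GIF-DTR, and control 2 lay within the range of the other 2 lines. Ctss passed in none of the 6 comparisons, and against ATP4B-DTR it differed by 1.19 ± 0.49 log2 units in GIF-DTR (edgeR adjusted p = 0.458).

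Class I presentation, the neighbouring route that shows peptides from inside the cell, differed from class II in which control was higher. Of its 10 tested genes edgeR passed 1 higher in ATP4B-DTR against control, 2 higher in GIF-DTR, 1 higher in GIF/ATP4B-DTR and 0 lower in any of them. Among all tested genes, 12.2%, 9.97% and 18.2% were called higher and 9.39%, 6.82% and 15.4% lower, in the same order. The list medians were 0.28, 0.85 and 0.07 log2 units. Psmb10, a subunit of the immunoproteasome, rose in all 3 lines by between 1.17 and 1.30 log2 units, and Psmb9 rose in GIF-DTR by 1.30. The summed level of the list was 2189 CPM in control 1 and 1030 CPM in control 2, so the control that was high for class II was low for class I. Between lines, all 10 genes had a higher fitted level in GIF-DTR than in ATP4B-DTR (median 0.52 log2 units) and all 10 a lower one in GIF/ATP4B-DTR than in GIF-DTR (median −0.66), and edgeR passed 0 of them in either comparison. Among 4 tested costimulatory genes, 0 passed in any comparison with control or between lines.

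Because bulk RNA does not show which cells the transcripts came from, fewer cells of a type and less RNA per cell cannot be told apart. Marker lists of other cells were therefore set beside the class II sum. The 7 genes together summed to 32.7 and 207 CPM in controls 1 and 2, 32.3 to 58.8 CPM in ATP4B-DTR, 89.0 to 169 CPM in GIF-DTR and 24.5 to 59.3 CPM in GIF/ATP4B-DTR. Macrophage and monocyte markers, 12 genes, summed to 17.3 and 76.1 CPM in the controls, 39.3 to 65.4 CPM in ATP4B-DTR, 97.9 to 110 CPM in GIF-DTR and 36.8 to 60.4 CPM in GIF/ATP4B-DTR. Both sums were higher in control 2 than in control 1 and higher in GIF-DTR than in the other 2 lines, and the part of these markers in the result was not tested. They differed in where the controls stood: control 2 was above every GIF-DTR sample for class II and below every one for the macrophage sum, and control 1 was below all 9 line samples for the macrophage sum only. Of the 12 genes, 11 had a higher fitted level in GIF-DTR than in ATP4B-DTR and 11 a lower one in GIF/ATP4B-DTR than in GIF-DTR, with 0 passed in either comparison. C1qa, a complement gene of tissue macrophages, was 1.75 and 14.0 CPM in controls 1 and 2 and 19.0 to 21.3 CPM in GIF-DTR. Others went another way: Cd68 was 5.21 CPM in control 1 and 3.38 in control 2, and Cd14, which rose against control in all 3 lines by between 1.38 and 1.97 log2 units, was 9.76 to 13.1 CPM in GIF/ATP4B-DTR and 7.42 to 8.33 CPM in GIF-DTR. Ccr2, a chemokine receptor of monocytes, rose in GIF-DTR against control by 2.86 log2 units (edgeR adjusted p = 0.0441). This rise is against both controls together, and most list calls of GIF-DTR against control ended with the Y-linked covariate.

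Endothelial markers, 6 genes, summed to 8.76 and 73.7 CPM in controls 1 and 2, at most 21.4 CPM in ATP4B-DTR, 20.2 to 46.7 CPM in GIF-DTR and 7.54 to 15.5 CPM in GIF/ATP4B-DTR. They too moved with the class II genes between the controls and in GIF/ATP4B-DTR against GIF-DTR. Against control, 0 of the 6 had a higher fitted level in GIF/ATP4B-DTR (median −2.23 log2 units) and 1 in ATP4B-DTR (median −1.54). The edgeR test passed 1 of them, Kdr, a receptor for vascular growth factor, which fell in GIF/ATP4B-DTR by 3.16 log2 units (adjusted p = 0.0269). This fall is against both controls together, and the endothelial sum of control 1 lay within the range of GIF/ATP4B-DTR. Their part in the class II result was not tested. Pan-leukocyte markers, 6 genes, were 22.0 and 41.2 CPM in the controls, 37.1 to 45.3 CPM in GIF-DTR and 15.7 to 27.7 CPM over the other 2 lines. Of these 6, edgeR passed 3 lower in GIF/ATP4B-DTR against control (Ptprc, Laptm5 and Rac2; list median −0.76 log2 units), against 15.4% of all tested genes. H2-Aa and H2-Eb1 fell in the same comparison. Against control it also passed 1 lower in ATP4B-DTR (Laptm5), against 9.39% of all tested genes, and 1 higher in GIF-DTR (Cd52), against 9.97%. In GIF/ATP4B-DTR against GIF-DTR it passed 2 lower, where 2.53% of all tested genes were called: Laptm5 and Cd52 fell by 1.29 and 1.55 log2 units (edgeR adjusted p of 0.0414 and 0.0286). The part of these markers in the class II result was not tested. Dendritic cell markers, 10 genes of which 4 were tested, summed to 1.62 and 7.65 CPM in the controls and 5.78 to 8.73 CPM in GIF-DTR, above ATP4B-DTR (3.58 to 4.39 CPM) and partly overlapping GIF/ATP4B-DTR (2.14 to 5.81 CPM). Itgax, an integrin of dendritic cells and some macrophages, was 0.674 and 2.38 CPM in controls 1 and 2, 0.838 to 1.70 CPM in ATP4B-DTR, 3.15 to 5.04 CPM in GIF-DTR and 0.645 to 3.29 CPM in GIF/ATP4B-DTR. It was the 1 gene of the 10 with every GIF-DTR sample above every ATP4B-DTR sample, so the separation of the sum rests on Itgax. Zbtb46, a transcription factor of classical dendritic cells, was 1.14 to 1.39 CPM in GIF-DTR and 1.10 to 1.91 CPM in ATP4B-DTR. Flt3, a receptor that dendritic cells depend on, was 0.0898 and 0.721 CPM in controls 1 and 2 and at or below 0.198 CPM in every line sample. The part of these markers was not tested either.

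B cell markers summed to between 0.279 and 1.77 CPM over the 11 samples, with 1 to 6 of 8 genes at 0, and T cell markers to between 0.746 and 4.10 CPM. Plasma cell markers were 36.9 and 503 CPM in controls 1 and 2 and at most 25.5 CPM in any line sample. Of 6 plasma cell genes 4 were tested, and against control edgeR passed all 4 as lower in ATP4B-DTR (median −7.27 log2 units) and in GIF/ATP4B-DTR (median −5.78), namely Igha, Igkc and Jchain, which encode parts of antibodies, and Derl3, a gene of the secretory pathway. In GIF-DTR it passed 1 of the 4 as lower, Derl3 (list median −4.44). Epithelial markers summed to between 7534 and 12171 CPM over the 11 samples and were lowest in control 2. Against control, Epcam rose in ATP4B-DTR by 0.62 and in GIF/ATP4B-DTR by 0.64 log2 units, Krt8 rose in GIF/ATP4B-DTR by 0.72, and Cdh1 fell in ATP4B-DTR by 0.61. None of these lists was tested for its part in the class II result.

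Relative to the macrophage and monocyte sum, the class II sum was 1.89 in control 1 and 2.72 in control 2. It was 0.907, 0.822 and 0.899 in ATP4B-DTR, 1.66, 0.909 and 1.45 in GIF-DTR, and 0.667, 0.982 and 0.912 in GIF/ATP4B-DTR. Both controls lay above all 9 line samples on this ratio, and GIF-DTR 2 fell among the samples of the other lines. Relative to the endothelial sum, the class II sum ranged from 2.80 to 3.73 in control, 2.69 to 3.13 in ATP4B-DTR, 3.62 to 6.06 in GIF-DTR and 3.25 to 3.83 in GIF/ATP4B-DTR, and the controls did not stand apart. Nor did they relative to the pan-leukocyte, dendritic, T, B or epithelial sums. Control 1 was at 1.48, 20.2 and 16.5 on the first 3 of these, where GIF-DTR 1 was at 4.15, 22.6 and 65.0.

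**Figure D4:**
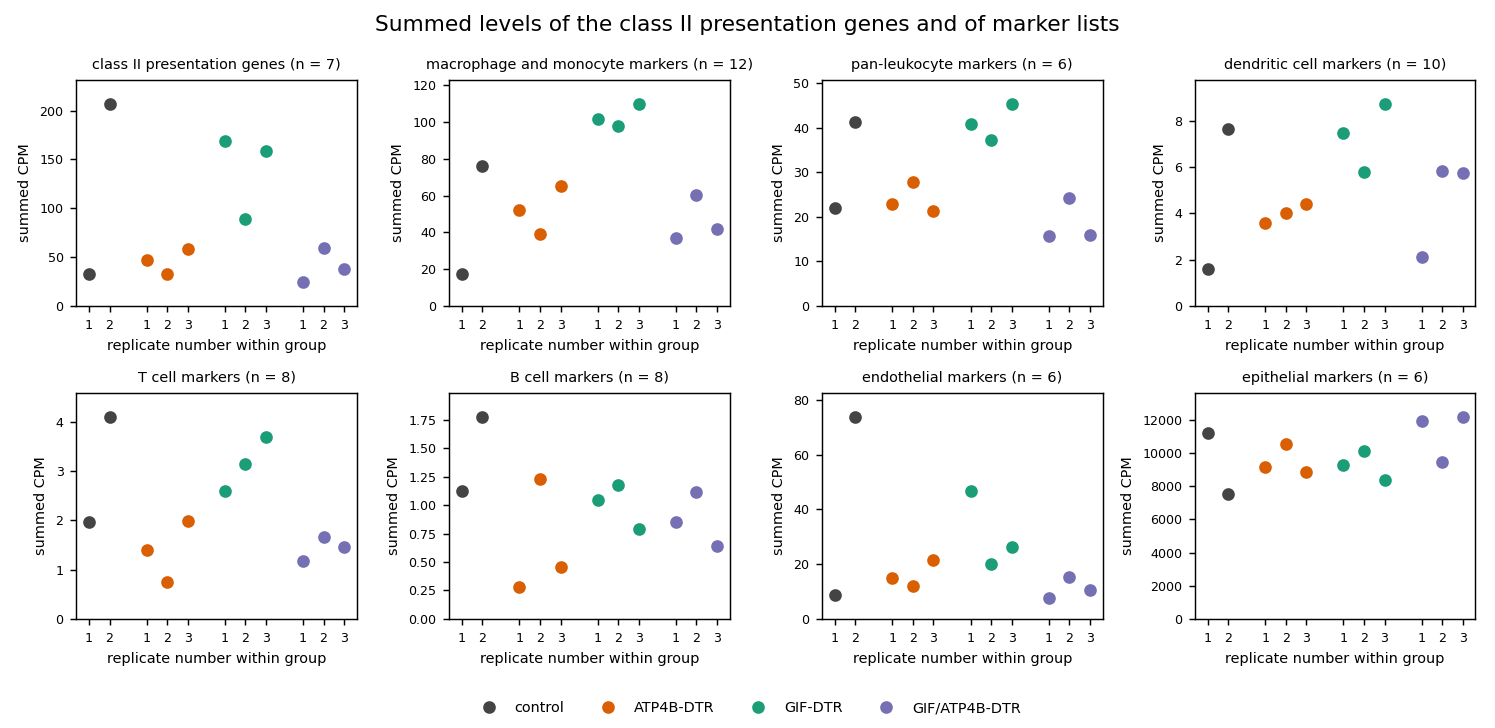
Summed CPM (linear axes from 0, a separate scale in each panel) of the 7 class II presentation genes and of 7 marker lists in each of the 11 samples, with the number of genes in each list in its title. The class II sum reaches 207 CPM in control 2 and 32.7 CPM in control 1, and the macrophage and endothelial panels also place control 2 above control 1 and GIF-DTR 1 and 3 above the other lines.

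By a fixed rule, the genes whose pattern over the 11 samples lay closest to the mean pattern of the 7 were found among 9400 other genes with a mean of at least 8 CPM, by the root mean square distance of centred log2 CPM. The 10 nearest were Itpkb, Axl, Vim, Ogn, Col4a1, Hspg2, Htra1, Rgs5, Msn and Rdx, at distances from 0.391 to 0.483 log2 units, where the median candidate was at 0.946. Axl, a receptor kinase that binds Gas6, ranged from 3.10 to 30.3 CPM in control and 10.4 to 21.6 CPM in GIF-DTR. Col4a1, a basement membrane collagen, ranged from 15.9 to 108 CPM in control and 46.1 to 109 CPM in GIF-DTR. All of these share the same libraries, so the likeness is a description.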

How the data were processed

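RNA of the gastric corpus mucosa was extracted with a Nucleospin kit and made into libraries with a TruSeq kit that marks strand, per the labels' protocols. The authors deposited 1 table of expected counts per gene for all 11 samples. No label names this unit; it follows from the deposited values, 30.7% of whose nonzero entries are fractional expected counts. The build is mm10 per the submitters' processing notes. The quantifier and the use of strand are not given in the sources used here.

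Line samples were grouped by the genotype label and controls by their titles. The replicate numbers of the line samples were assigned here. Gene identifiers were matched to symbols without their version (34582 of 34866, 99.2%). Counts were rounded, genes filtered with filterByExpr, libraries scaled by TMM, and 1 coefficient per group fitted to all 11 samples with edgeR 4.0.16 (R 4.3.3, robust quasi-likelihood). DESeq2 1.42.0 was an alternative. The standard error is the log2 difference divided by the square root of its F statistic. Floors of 3 counts cover counting error only. Likeness used log2 CPM with 0.5 counts added. The test was tried on simulated data: of 200 genes set to change 4-fold, 72% to 83% were recovered, and 3.09% to 5.26% of calls were false, depending on the comparison.

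The 7 genes, the gene lists and the tests were chosen with earlier results of these data known, so p-values are not adjusted over lists alone. Named by rule were the 7 genes, up to 4 called genes of largest change per list, all other class II and class II transcription genes, Ifng, Irf1 and Ctss, and the 10 genes of nearest pattern. Other genes the rule covers, among them some called parietal and chief cell markers, are not reported here. Chain ratios, C1qa, Cd68, Flt3, Itgax, Zbtb46 and the ratios to marker sums were picked after values were seen.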

Additional observations from a re-analysis of the deposited data

How the results depend on the processing

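No paired analysis was possible because only the controls carry replicate numbers in the labels. In every fit run, the direction of GIF-DTR against ATP4B-DTR (higher) and of GIF/ATP4B-DTR against GIF-DTR (lower) was kept for each of the 7 genes tested in it. For genes whose groups do not overlap, this direction was nearly fixed in advance. Calls were less stable, and the cause was not tested.

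Of the 7 genes, ATP4B-DTR against control went from 0 called to 2 with DESeq2, 1 with at least 10 counts in every sample and 2 without robust moderation, where the genes called came to 26.7%, 22.3% and 21.7% of the 14889. GIF/ATP4B-DTR against control went from 2 to 0 with no filter, 0 with only the groups compared and 0 when Y-linked expression entered as a covariate, against 31.4%, 26.8% and 31.9% of genes. H2-DMb1 passed there too with DESeq2 (adjusted p = 0.0307), with the 50 most abundant genes left out of the scaling (edgeR, 0.0485) and with at least 10 counts in every sample (edgeR, 0.0436), which made 3 genes, against 38.5%, 34.7% and 33.1%. GIF-DTR against ATP4B-DTR went from 0 to 2 with DESeq2 and 2 with only the groups compared. GIF/ATP4B-DTR against GIF-DTR went from 0 to 3 with DESeq2, 1 with no filter and 2 with only the groups compared. Leaving out 1 library gave 0 to 4 genes for ATP4B-DTR, 0 to 1 for GIF-DTR and 0 to 5 for GIF/ATP4B-DTR against control, 0 to 3 for GIF/ATP4B-DTR against GIF-DTR, and 0 for the other two comparisons of lines and the interaction.

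With the Y-linked covariate, Ciita turned to −0.30 in ATP4B-DTR against control, and in GIF/ATP4B-DTR against ATP4B-DTR H2-Aa turned to 0.28, H2-Ab1 to 0.086 and Ciita to 0.048. Leaving out 1 library turned other log2 differences. In ATP4B-DTR against control the ranges were −1.99 to 0.88 for H2-Ab1, −1.13 to 1.36 for H2-DMa, −2.03 to 0.77 for Cd74 and −0.83 to 0.58 for Ciita. In GIF-DTR against control they were −0.95 to 1.78 for H2-Aa, −0.15 to 2.72 for H2-Ab1, −0.93 to 1.81 for H2-Eb1, −0.19 to 2.30 for H2-DMa, −0.087 to 0.69 for H2-DMb1 and −0.56 to 2.23 for Cd74. In GIF/ATP4B-DTR against control they were −2.05 to 0.82 for H2-Ab1, −1.72 to 0.77 for H2-DMa and −2.22 to 0.57 for Cd74. In GIF/ATP4B-DTR against ATP4B-DTR they were −0.42 to 0.23 for H2-Aa, −0.59 to 0.25 for H2-Ab1, −0.24 to 0.61 for H2-Eb1, −0.59 to 0.074 for Cd74 and −0.86 to 0.55 for Ciita. In the interaction they were −1.89 to 0.84 for H2-Aa, −2.78 to 0.089 for H2-Ab1, −1.73 to 1.00 for H2-Eb1 and −2.43 to 0.37 for Cd74.

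Genes called over all lists went from 20 to 13 with only the groups compared and 10 with the Y-linked covariate in ATP4B-DTR against control (10 to 21 without 1 library), and from 15 to 26 with DESeq2 and 1 with the covariate in GIF-DTR (8 to 16). In GIF/ATP4B-DTR they went from 26 to between 17 and 37 without 1 library. In GIF-DTR against ATP4B-DTR they went from 2 to 6 with DESeq2, 1 with at least 10 counts and 1 with the covariate (1 to 3).

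Over all tested genes, DESeq2 called 383 against 73 in GIF-DTR against ATP4B-DTR, 1.87% of the 14889 genes in place of 0 between the combined line and ATP4B-DTR, 987 against 376 between the combined line and GIF-DTR, and 730 against 97 in the interaction. The Y-linked covariate gave 1878 against 3211 for ATP4B-DTR and 518 against 2500 for GIF-DTR, both against control, 21 against 73 for GIF-DTR against ATP4B-DTR, 12 against 376 for GIF/ATP4B-DTR against GIF-DTR, and 0 against 97 for the interaction. Samples without Y-linked expression gave 30 against 73. No filter gave 57 in place of 0 between the combined line and ATP4B-DTR, and 191 against 97 for the interaction, where DESeq2 size factors gave 57, at least 10 counts 155 and no robust moderation 61. Without 1 library the calls ranged from 1315 to 3329 for ATP4B-DTR, 871 to 2629 for GIF-DTR and 2874 to 5042 for the combined line against control, each lowest without control 2. Between lines they ranged from 17 (without ATP4B-DTR 1 or 2) to 140 (without ATP4B-DTR 3) for GIF-DTR against ATP4B-DTR, from 160 (without GIF/ATP4B-DTR 3) to 393 for the combined line against GIF-DTR, and from 0 to 43 (without GIF/ATP4B-DTR 2) for it against ATP4B-DTR. The interaction ranged from 0 (without control 2) to 277 (without GIF/ATP4B-DTR 2).

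The fit without control 2 or control 1 leaves 1 control, assumed to vary like the other groups. Ciita, at 6 to 41 counts per sample, and H2-DMa, at 12 to 69, are limited by depth, and Ciita was not tested where at least 10 counts were required.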
